A study of Mus musculus with 12 samples.

Results

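The phagocyte NADPH oxidase is an enzyme complex of myeloid cells that passes electrons from NADPH across a membrane to oxygen and so makes superoxide. The 7 genes described here are Cybb, Cyba, Ncf1, Ncf4, Rac1, Rac2 and Hvcn1, which encode subunits, activating GTPases and a proton channel of this system. They were chosen by gene symbol, as 7 of the 27179 genes in the deposited count table, with earlier results of these data known. Expression was measured by RNA sequencing of polyA RNA from conventional dendritic cells isolated from the spleens of female C57/BL6 mice. The 12 libraries form 4 groups of 3: type 1 cells (cDC1) and type 2 cells (cDC2), each from wild-type (WT) mice and from mice with the genotype label zfp366-/- (KO). The protein made from Zfp366 is DC-SCRIPT, a zinc finger factor found in dendritic cells. Each library came from a numbered mouse pool, and each of the 6 pools gave 1 cDC1 and 1 cDC2 library. The labels name no treatment of the mice, and state neither the mice's age nor which part of Zfp366 the allele removes.

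In the resting cell the oxidase is kept apart in pieces. The catalytic subunit gp91phox (Cybb) and its partner p22phox (Cyba) form a heterodimer, flavocytochrome b558, in the membrane, while cytosolic subunits such as p47phox (Ncf1) and p40phox (Ncf4) and a Rac GTPase wait in the cytosol. On stimulation p47phox is phosphorylated and carries the cytosolic subunits to the membrane, where the assembled complex with Rac starts electron flow, and the proton channel Hvcn1 balances the exported charge. In dendritic cells the oxidase is known for consuming protons in the phagosome, which slows acidification and the breakdown of antigen meant for cross-presentation, a specialty of cDC1.

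The RefSeq promoter table (GRCm38.p6) held 3 of the 7 genes. The 250 bases before the transcription start of these 3 are printed. All 3 genes lie on the minus strand, and each sequence reads 5′ to 3′ towards the start. Capitals mark matches, on either strand, to a spaced repeat of the kind interferon regulatory factors can bind, GAAA followed by any 2 bases and GAAA again. The windows are chrX:9469325-9469574 for Cybb, chr5:134229626-134229875 for Ncf1 and chr8:122432941-122433190 for Cyba.
Cybb: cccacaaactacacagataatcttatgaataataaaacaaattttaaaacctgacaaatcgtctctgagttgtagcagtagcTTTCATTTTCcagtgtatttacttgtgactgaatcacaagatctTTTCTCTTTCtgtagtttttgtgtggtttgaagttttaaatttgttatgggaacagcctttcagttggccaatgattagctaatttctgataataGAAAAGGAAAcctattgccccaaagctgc
Ncf1: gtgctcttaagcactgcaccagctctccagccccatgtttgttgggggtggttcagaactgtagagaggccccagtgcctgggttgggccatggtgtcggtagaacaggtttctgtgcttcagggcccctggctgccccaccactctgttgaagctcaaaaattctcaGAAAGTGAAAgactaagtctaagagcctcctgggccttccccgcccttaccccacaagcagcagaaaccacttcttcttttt
Cyba: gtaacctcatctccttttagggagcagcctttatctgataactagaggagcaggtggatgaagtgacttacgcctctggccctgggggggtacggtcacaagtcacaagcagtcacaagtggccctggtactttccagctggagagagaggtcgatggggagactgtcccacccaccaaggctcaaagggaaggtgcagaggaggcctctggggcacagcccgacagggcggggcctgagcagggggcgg
The Cybb window held 3 matches, 168, 124 and 29 bases before the start. The Ncf1 window held 1, 82 bases before the start, and the Cyba window none. Of 32851 RefSeq promoter windows of this length, 2.98% held at least 1 match. The Cybb window also held CCAAT, the core of the CCAAT box, 56 bases before the start, a motif found in 33.8% of windows. Also searched on both strands were GAGGAA, a core of PU.1 sites held by 23.3% of windows, and GGAA followed by any 2 bases and GAAA, a joint site of PU.1 and interferon regulatory factors held by 2.30%. The 3 windows held no match to either. GC content was 34.0% for Cybb, 54.4% for Ncf1 and 60.0% for Cyba. The Cybb window lies inside the longest annotated extent of the gene, in no GENCODE exon. GENCODE places the Cyba start at another base, so that window is exact for the RefSeq start alone. These are matches of letters, and no binding was measured.

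Total counts ran from 11330503 to 36761685 reads per library. Levels are in CPM (read counts scaled to a common library size, with TMM scaling for library composition), or in RPKM, which also divides by gene length, where genes are compared with each other. Values after ± are SDs over 3 libraries. Differences between groups are on the log2 scale, each with its SE (standard error). Adjusted p values come from edgeR's quasi-likelihood test over the 13415 genes that passed a filter on low counts, all 7 oxidase genes among them, and a gene passed the test when this value was below 0.05. The labels call the libraries biological replicates, so the p values between genotypes rest on the spread between mouse pools. The fit treats the cDC1 and the cDC2 library of a pool as independent. This bears on the p values between subsets and for the difference of the genotype effects, so fits with the pool as a block were run as alternatives. Zfp366 itself checks the genotype labels. In cDC1 it stood at 152, 89.2 and 67.5 CPM in WT and at 48.8, 48.4 and 45.4 CPM in KO, and it fell by 1.12 (SE 0.27, edgeR adjusted p = 0.0326). That call was lost without WT replicate 2 or without any 1 of the KO libraries (adjusted p up to 0.142). In a fit to the cDC1 groups alone, Zfp366 did not pass (edgeR adjusted p = 0.0863). In cDC2 it stood at 57.4 ± 4.91 CPM in WT and 66.9 ± 12.9 CPM in KO (n = 3 each), with no fall (0.22, SE 0.27, edgeR adjusted p = 1.00). Transcript levels thus set apart the libraries labelled KO in cDC1 and not in cDC2, and KO and WT below refer to the labels. The cDC1 markers Xcr1, Clec9a, Cadm1, Irf8, Batf3, Wdfy4 and Tlr3 summed to 4546 to 7736 CPM in the cDC1 libraries and to 734 to 1308 CPM in the cDC2 libraries. Most of the cDC2 sum was Wdfy4, at 533 to 1185 CPM. In those libraries Batf3 was at 57.1 to 81.4 CPM and Xcr1 at no more than 4.28 CPM.

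Counted over the set, 3 of 7 genes, Cybb, Hvcn1 and Rac2, rose in KO cDC1 and none fell. Of all tested genes 5.32% passed in this comparison, 3.60% higher and 1.72% lower in KO. The median log2 fold change was 0.15 for the 7 genes and -0.00 for all tested genes. In cDC2 none of the 7 passed in edgeR, where 0% of genes did. None of the 7 and 271 of all genes had an unadjusted edgeR p below 0.05 there, and DESeq2 and limma-voom called no gene either. The difference of the genotype effects passed for 1 of 7 genes, Cybb, against 1.42% of genes (1.27% with the larger effect in cDC1). With the mouse pool as a block 2 of 7 passed, Cybb and Hvcn1, against 0.865% of genes.

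Between the WT subsets Cybb, Cyba, Rac2 and Hvcn1 passed, 4 of 7, all lower in cDC1, against 21.2% of genes, 10.9% lower and 10.4% higher in cDC1. The median difference was -1.02 for the 7 genes and 0.02 for all tested genes. Between the KO subsets Cybb, Cyba and Hvcn1 passed, 3 of 7, also lower in cDC1, against 16.9% of genes, 8.43% lower and 8.45% higher in cDC1. The medians there were -0.42 and -0.00. The libraries of the groups compared did not overlap for 3 of the 7 genes between genotypes in cDC1 (26.9% of all genes), for 0 in cDC2 (5.88%), for 4 between the WT subsets (32.7%) and for 4 between the KO subsets (47.8%). Replicates 2 and 3 taken alone gave more calls throughout, for 6 of 7 genes in cDC1 (47.8% of all genes), 3 in cDC2 (7.72%), 6 for the difference of the effects (38.3%), 6 between the WT subsets (47.5%) and 5 between the KO subsets (49.2%).

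Cybb showed the largest genotype difference of the 7 genes in cDC1. It lies on chromosome X at 9435252 to 9487766 (GRCm38), on the minus strand, and no exon of another gene overlaps it. In WT cDC1 it stood at 18.6, 15.6 and 15.2 CPM in replicates 1, 2 and 3, from 339, 306 and 263 reads. In KO cDC1 it stood at 196, 196 and 194 CPM. All KO libraries lay above all WT libraries, and the KO values had an SD of 1.10 CPM. The difference was 3.57 (SE 0.28, edgeR adjusted p = 3.2e-05), an 11.8-fold rise, and it passed under all 14 alternative settings or library sets, from 3.34 to 3.67. In bulk libraries a change of level per cell and a change in the mix of cells cannot be told apart.

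The cDC2 libraries had more Cybb in both genotypes. WT cDC2 stood at 395, 377 and 300 CPM and KO cDC2 at 606, 299 and 353 CPM, so these groups overlapped, with KO replicate 1 the highest library of the 12. The genotype difference in cDC2 did not pass (0.23, SE 0.25, edgeR adjusted p = 1.00) and was -0.13 without KO replicate 1. That same library had 384 CPM of Adgre1, which encodes the macrophage marker F4/80, against 83.6 and 85.8 CPM in the other KO cDC2 libraries and 137, 273 and 195 CPM in WT cDC2. Of the 10 macrophage markers, Adgre1 and Cd163 were higher in that library than in both other KO cDC2 libraries and the other 8, C1qa, Slc40a1 and Hmox1 among them, were lower. Those 8 summed to 149 CPM there, against 273 and 259 CPM in replicates 2 and 3. Long genes also stood higher in KO replicate 1. Gene length and a gene's deviation from its mean over libraries had a Spearman correlation of 0.21 there. The correlation was -0.23 and -0.20 in KO cDC2 replicates 2 and 3. Cybb has the longest counted length of the oxidase genes, 4752 bases. The part of macrophage RNA or of this length trend in the Cybb value of KO replicate 1 was not tested. The genotype effect on Cybb was larger in cDC1 than in cDC2 by 3.33 (SE 0.37, edgeR adjusted p = 0.000842), a call kept under all 20 alternatives.

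Between subsets, Cybb was lower in WT cDC1 than in WT cDC2 by 21.7-fold (-4.44, SE 0.29, edgeR adjusted p = 7.0e-07). In KO mice the distance was 2.15-fold (-1.10, SE 0.25, adjusted p = 0.0108). It was -0.74 without cDC2 KO replicate 1, and the call was lost without cDC1 KO replicate 3 (adjusted p = 0.0508). The mean of WT cDC1 was 4.62% of that of WT cDC2, and the mean of KO cDC1 was 54.7% of it. Both subset comparisons share cDC1 libraries with the genotype comparison, so they are not independent of it.

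Cyba, whose protein stabilises gp91phox in the membrane, did not follow it. The gene lies on chromosome 8 at 122424771 to 122432940 on the minus strand, and its counted length of 759 bases is the shortest of the 7. In WT cDC1 it stood at 276, 583 and 669 CPM, and in KO cDC1 at 418, 326 and 378 CPM. WT replicate 1 lay below every KO library and WT replicates 2 and 3 lay above them. The difference did not pass (-0.45, SE 0.32, edgeR adjusted p = 0.497). The pair numbered 1 differed by 0.60 and the pairs numbered 2 and 3 by -0.84 and -0.82, and a fit to replicates 2 and 3 alone gave -0.85 (edgeR adjusted p = 0.000287), in which 47.8% of all genes passed.

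WT cDC2 stood at 948, 985 and 1165 CPM of Cyba and KO cDC2 at 549, 1031 and 907 CPM. KO replicate 1 was the low library, and the groups overlapped (-0.32, SE 0.32, edgeR adjusted p = 1.00). Against cDC2, Cyba was lower in cDC1 by 1.02 on the log2 scale in WT mice (-1.02, SE 0.32, edgeR adjusted p = 0.0408) and by 1.15 in KO mice (-1.15, SE 0.33, adjusted p = 0.0303). With the mouse pool as a block neither passed (adjusted p = 0.0582 and 0.0729), and each also lost its call in 5 of 6 fits that left out 1 library, with adjusted p up to 0.110 and 0.129. The WT call was kept when cDC1 replicate 3 was the library left out, and the KO call when it was cDC2 replicate 1. A fit to the WT groups alone also lost the WT call (edgeR adjusted p = 0.0877). The low Cyba libraries were ones in which long genes stood higher. Across the 13415 genes, gene length and a gene's deviation from its mean over libraries had a Spearman correlation of 0.45 in cDC1 WT replicate 1, against -0.24 and -0.34 in replicates 2 and 3. It was 0.21 in cDC2 KO replicate 1, against -0.23 and -0.20 in replicates 2 and 3. It was 0.30 to 0.41 in the cDC1 KO libraries and -0.33 to -0.09 in those of WT cDC2. The part of this length trend in the Cyba values was not tested beyond a fit with a gene length offset, where the cDC1 genotype difference was -0.06.

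**Figure D1:**
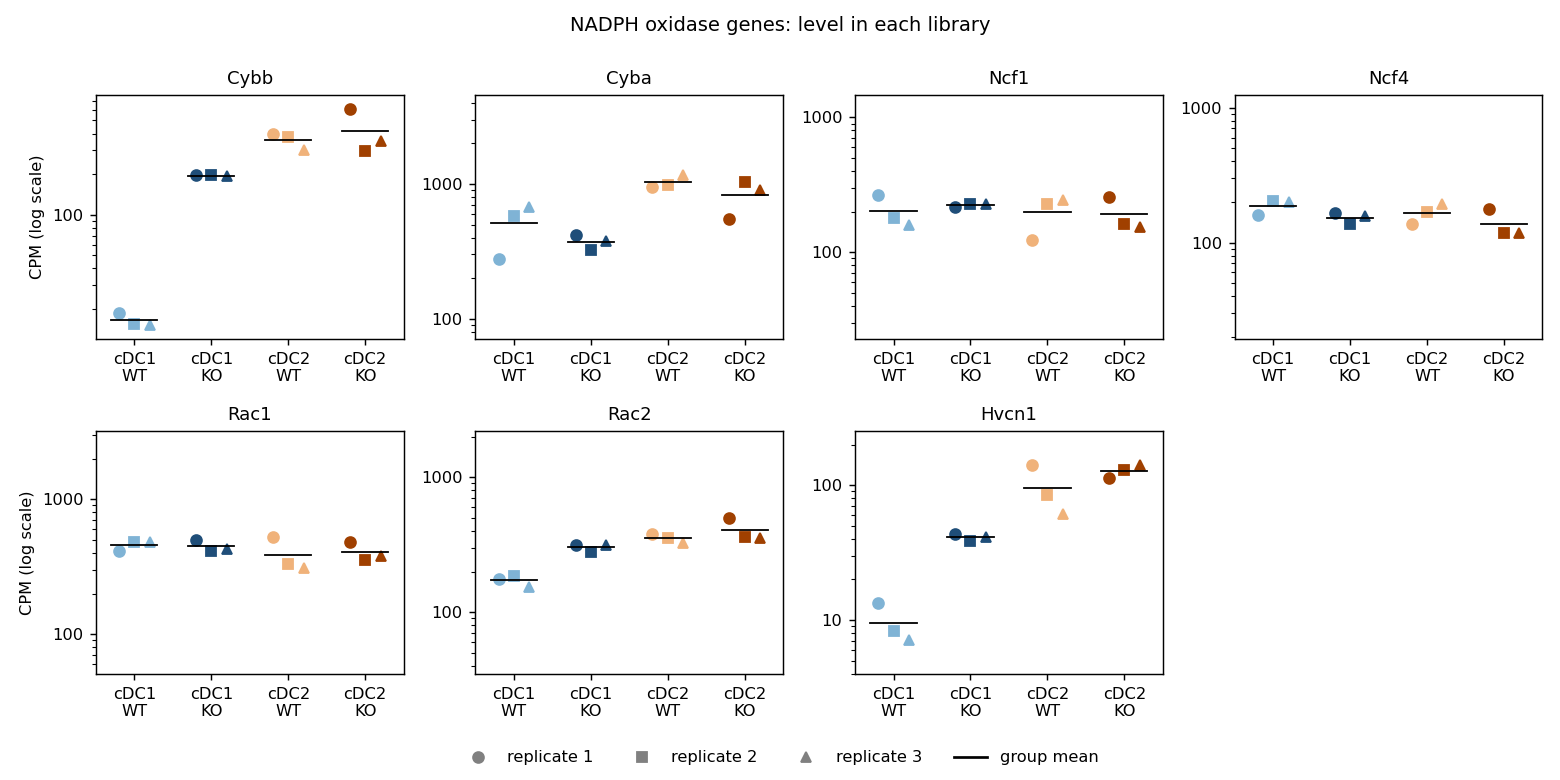
Level of each oxidase gene in the 12 libraries, in CPM on a log axis, with 1 panel per gene. Each marker is 1 library, its shape gives the replicate number and the line is the group mean (n = 3). Cybb and Hvcn1 show the WT cDC1 libraries far below all others, whereas the groups overlap for Ncf1, Ncf4 and Rac1.

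Among the cytosolic subunits, neither gene of the set passed in any of the 5 comparisons. Ncf1 encodes p47phox, the organiser that carries the complex to the membrane. It lies on chromosome 5 at 134220053 to 134229628 on the minus strand. Ncf1 stood at 267, 180 and 159 CPM in WT cDC1, and at 217, 229 and 228 CPM in KO cDC1. The KO libraries fell inside the WT range (0.15, SE 0.30, edgeR adjusted p = 0.827). It stood at 124, 227 and 243 CPM in WT cDC2, and at 258, 161 and 153 CPM in KO cDC2. Replicate 1 was the low library in WT cDC2 and the high one in KO cDC2, and the groups overlapped (-0.05, SE 0.30, edgeR adjusted p = 1.00). Within replicates 2 and 3 alone Ncf1 passed in both subsets and in opposite directions. It was 0.41 in cDC1 (edgeR adjusted p = 0.00793) and -0.58 in cDC2 (adjusted p = 0.00622). In that fit 47.8% of all genes passed in cDC1 and 7.72% in cDC2. The part of the length trend in these calls was not tested.

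Ncf4 encodes p40phox, which binds a phagosomal phosphoinositide. It lies on chromosome 15 at 78244164 to 78262582 on the plus strand, 296586 bases from Rac2. In WT cDC1 it stood at 160, 203 and 200 CPM, and in KO cDC1 at 165, 137 and 158 CPM. WT replicate 1 lay among the KO libraries, and the difference did not pass (-0.30, SE 0.22, edgeR adjusted p = 0.511). In cDC2 it stood at 136, 169 and 194 CPM in WT and 176, 118 and 117 CPM in KO, which overlapped (-0.28, SE 0.22, edgeR adjusted p = 1.00). Within replicates 2 and 3 alone the KO libraries lay below those of WT in both subsets. Ncf4 passed in both there, at -0.48 in cDC1 (edgeR adjusted p = 0.00457) and -0.62 in cDC2 (adjusted p = 0.00622). In that fit 47.8% of all genes passed in cDC1 and 7.72% in cDC2. The part of the length trend in these calls was not tested. The whole range of Ncf4 over the 12 libraries was 1.74-fold.

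The Rac GTPases differed from each other. Rac1, the broadly expressed form, lies on chromosome 5 at 143505481 to 143528031 on the minus strand. It stood at 417, 484 and 480 CPM in WT cDC1 and at 503, 414 and 425 CPM in KO cDC1, with overlapping libraries (-0.04, SE 0.23, edgeR adjusted p = 0.950). In cDC2 it stood at 523, 332 and 310 CPM in WT and 481, 357 and 378 CPM in KO, also overlapping (0.06, SE 0.23, edgeR adjusted p = 1.00). Rac1 had the smallest range of the 7 genes over the 12 libraries, 1.69-fold. It passed in none of the 5 comparisons.

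Rac2, the form of blood cells, lies on chromosome 15 at 78559169 to 78572783 on the minus strand. In WT cDC1 it stood at 177, 186 and 153 CPM, and in KO cDC1 at 315, 279 and 313 CPM. All KO libraries lay above all WT libraries, and Rac2 rose by 0.81 (SE 0.20, edgeR adjusted p = 0.0319), or 1.76-fold. The call was lost in 5 of 6 fits that left out 1 library, all except the one without WT replicate 1, with adjusted p up to 0.150, and with no filter on low counts (0.0628). In cDC2 it stood at 380, 355 and 327 CPM in WT and 500, 358 and 357 CPM in KO, which overlapped (0.19, SE 0.20, edgeR adjusted p = 1.00). The genotype effects on Rac2 in the subsets were not shown to differ (0.62, SE 0.28, edgeR adjusted p = 0.498). Rac2 was lower in WT cDC1 than in WT cDC2 (-1.04, SE 0.20, edgeR adjusted p = 0.00227), and in KO mice the difference did not pass (-0.42, SE 0.20, adjusted p = 0.165).

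Hvcn1, the voltage-gated proton channel, lies on chromosome 5 at 122206805 to 122242297 on the plus strand. In WT cDC1 it stood at 13.3, 8.37 and 7.11 CPM, and in KO cDC1 at 43.6, 38.9 and 41.5 CPM. The groups did not overlap, and Hvcn1 rose by 2.11 (SE 0.31, edgeR adjusted p = 0.00159), or 4.31-fold, under all 14 alternatives. In cDC2 it stood at 140, 84.8 and 61.6 CPM in WT and 114, 129 and 141 CPM in KO. Those groups overlapped, and the difference did not pass (0.42, SE 0.30, edgeR adjusted p = 1.00). Within replicates 2 and 3 it was 0.88 (edgeR adjusted p = 0.00473), where 7.72% of all genes passed in cDC2.

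The genotype effects on Hvcn1 differed by 1.69 between the subsets (SE 0.42, edgeR adjusted p = 0.0825), which did not pass. With the mouse pool as a block it did (adjusted p = 0.0472), as in 5 more of the 20 alternatives. Against cDC2, Hvcn1 was lower in cDC1 in WT mice (-3.32, SE 0.33, edgeR adjusted p = 1.4e-05) and in KO mice (-1.63, SE 0.30, adjusted p = 0.00286). Its mean in KO cDC1 was 43.2% of that in WT cDC2.

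**Figure D2:**
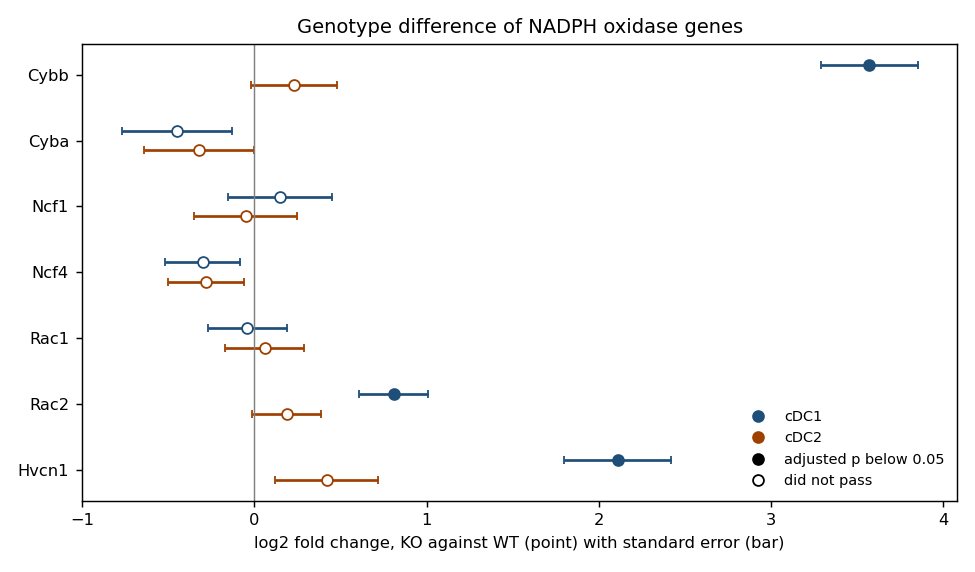
Log2 fold change of KO against WT for the 7 oxidase genes, in cDC1 and in cDC2. Points are edgeR estimates, bars are the standard error to either side, and filled points have an adjusted p below 0.05. In cDC1 the filled points are Cybb, Hvcn1 and Rac2, and in cDC2 every point is open.

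On the RPKM scale, which allows genes to be compared, Cyba was the highest of the 7 and Rac1 the next in every group. In WT cDC1 the order was Cyba (671 ± 272 RPKM), Rac1 (203 ± 16.6), Ncf4 (129 ± 16.5), Ncf1 (74.3 ± 21.0), Rac2 (56.7 ± 5.64), Cybb (3.47 ± 0.395) and Hvcn1 (3.39 ± 1.15, n = 3 each). Neighbours whose libraries overlapped were Ncf1 with Rac2, and Cybb with Hvcn1. The catalytic subunit and the proton channel were thus more than 10 times below the means of the other genes in these libraries. In KO cDC1 Rac2 (99.6 ± 6.56 RPKM) stood beside Ncf4 (105 ± 10.2), with overlapping libraries. Below them came Ncf1 (82.6 ± 2.49), Cybb (41.1 ± 0.231) and Hvcn1 (14.6 ± 0.830, n = 3 each), which did not overlap. In WT cDC2 the libraries of Rac2 overlapped those of Ncf4, at means of 117 and 114 RPKM, and those of Cybb overlapped Ncf1, at 75.2 and 72.7 RPKM. The KO cDC2 means had the same order.

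Ratios within a library take out its depth, but not its trend with gene length. The counted lengths were 759 bases for Cyba and 4752 bases for Cybb. The level of Cyba over that of Cybb, from RPKM, was 92.7, 234 and 275 in WT cDC1 and 13.4, 10.4 and 12.2 in KO cDC1. It was 15.0, 16.4 and 24.3 in WT cDC2 and 5.67, 21.6 and 16.1 in KO cDC2. The WT cDC1 libraries lay above all others, and the KO cDC1 values fell inside the KO cDC2 range and below that of WT cDC2. Hvcn1 over Cybb was 1.20, 0.901 and 0.786 in WT cDC1 and 0.375, 0.333 and 0.359 in KO cDC1. It ran from 0.345 to 0.598 in WT cDC2 and from 0.315 to 0.728 in KO cDC2, so here too the WT cDC1 libraries were the highest. Rac2 over Rac1 was 0.318, 0.287 and 0.238 in WT cDC1 and 0.468, 0.504 and 0.551 in KO cDC1. It ran from 0.542 to 0.799 in WT cDC2 and from 0.705 to 0.777 in KO cDC2. Rac2 was below Rac1 per length in all 12 libraries. These ratios are descriptions and were not tested.

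**Figure D3:**
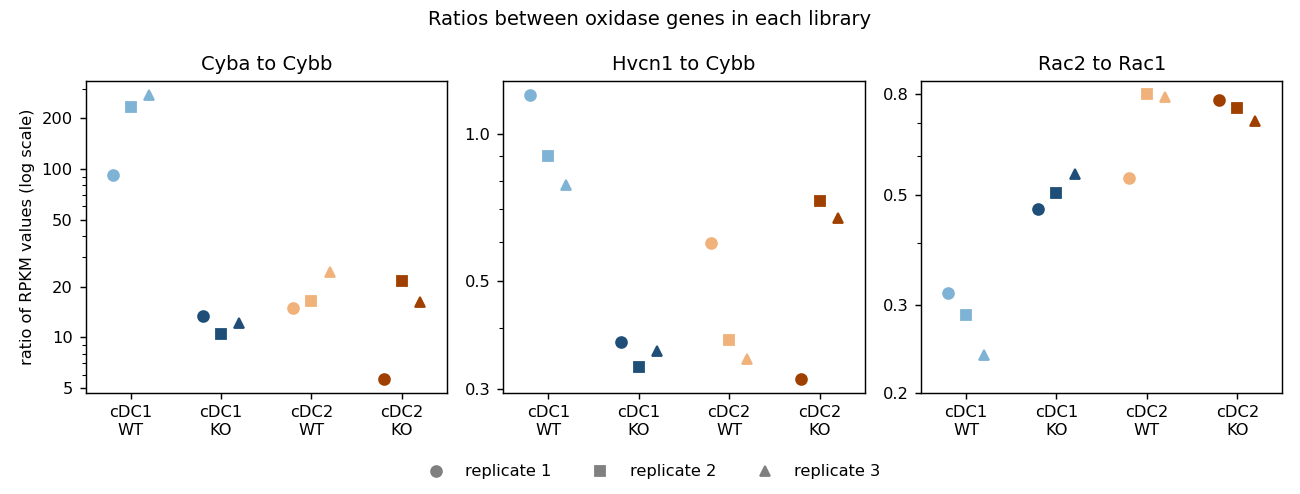
Ratio of the RPKM values of oxidase genes in each of the 12 libraries, on log axes: Cyba over Cybb, Hvcn1 over Cybb, and Rac2 over Rac1. Marker shape gives the replicate number. The WT cDC1 libraries stand apart in every panel, at 92.7 to 275 for Cyba over Cybb against 5.67 to 24.3 in the others.

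The rises in cDC1 came together with markers of cDC2. The cDC2 markers Sirpa, Itgam, Irf4, Clec4a4, Cd209a, Dtx1 and Clec10a summed to 52.8 to 69.8 CPM in WT cDC1, 476 to 486 CPM in KO cDC1, 1906 to 2205 CPM in WT cDC2 and 2027 to 2337 CPM in KO cDC2. All 7 rose in KO cDC1, and none of the list was at 0 in any group. Of all tested genes 3.60% rose and 1.72% fell there. The cDC1 markers summed to 5595 to 7736 CPM in WT cDC1 and 4546 to 5318 CPM in KO cDC1, and 0 of 7 passed. Xcr1 stood at 871, 1068 and 1058 CPM in WT cDC1 and at 502, 431 and 437 CPM in KO cDC1. For Xcr1, Irf8, Cadm1 and Tlr3 every KO value was below every WT value. Such a separation, in either direction, held for 26.9% of tested genes. For Clec9a, Batf3 and Wdfy4 the values of the genotypes crossed. Wdfy4 ran from 983 to 3782 CPM in WT cDC1 and weighed heavily on the sums. Of 8 monocyte markers, Ccr2 and Ms4a4c rose in KO cDC1, and the list summed to 941 to 1983 CPM in WT cDC1 and 2800 to 3065 CPM in KO cDC1. Ccr2 went from 69.4 ± 38.9 CPM in WT cDC1 to 525 ± 87.1 CPM in KO cDC1, and Ms4a4c from 12.9 ± 2.96 to 60.6 ± 3.67 CPM. Lyz2 and Plac8, which did not pass, had means of 451 and 983 CPM in WT and 699 and 1680 CPM in KO. Ly6c2, a marker of classical monocytes, was at 5.43 ± 2.80 CPM in WT and 4.79 ± 1.26 CPM in KO (n = 3 each). F13a1, Chil3 and Fcgr1 had means of at most 1.08 CPM in either genotype. Of 10 macrophage markers, Cd163 rose and Vcam1 fell, with sums of 138 to 285 CPM in WT cDC1 and 174 to 256 CPM in KO cDC1.

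Neutrophils are rich in the oxidase. Their 10 markers summed to 2.25, 16.4 and 24.7 CPM in WT cDC1 and to 7.60, 9.12 and 14.1 CPM in KO cDC1. Of these markers 7 could be tested and none passed, with Elane at 0 in every group and Mpo at 0 in KO cDC1. Others had reads, and S100a9 stood at 6.81 ± 6.40 CPM in WT cDC1 and 4.28 ± 1.63 CPM in KO cDC1 (n = 3 each). The neutrophil sums reached 113 CPM in WT cDC2 and 89.6 CPM in KO cDC2. Of 8 B cell, 6 T cell and 5 NK cell markers, 6, 4 and 3 could be tested, and none passed in cDC1. The B cell sums were 35.9 to 68.7 CPM in WT cDC1 and 47.8 to 61.7 CPM in KO cDC1. For T cells they were 1.32 to 3.78 and 0.597 to 2.37 CPM, and for NK cells 0.770 to 2.14 and 2.86 to 3.32 CPM. The NK cell sums of the genotypes thus did not overlap. Of 7 plasmacytoid dendritic cell markers Ccr9 and Pacsin1 fell. The part of cDC2, monocyte, macrophage or neutrophil RNA in the rise of Cybb, Rac2 and Hvcn1 was not tested.

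The library pattern of each oxidase gene was compared with that of 9351 genes, by Pearson r of log2 CPM over the 12 libraries. These points share groups, mouse pools, depth and the trend with gene length given above, and the correlations are descriptions. Closest to Cybb were Ptpro, a receptor tyrosine phosphatase gene (r = 0.990), Bin1, which encodes a membrane-curving protein (0.987), and Ptpn6, which encodes the phosphatase SHP-1 (0.986). Ptpro stood at 6.20 ± 2.09 CPM in WT cDC1, 73.9 ± 15.3 in KO cDC1, 119 ± 27.3 in WT cDC2 and 119 ± 14.1 in KO cDC2 (n = 3 each). Closest to Rac2 were Emb (0.978), Atp6v0c, a subunit gene of the vacuolar proton pump (0.976), and Bin1 (0.975). For Hvcn1 they were Bcl3, which encodes a nuclear regulator of NF-kappaB (0.994), Pglyrp2 (0.991) and St8sia1 (0.991). Cybb itself correlated with Rac2 at 0.97 and with Hvcn1 at 0.95, and with its partner Cyba at 0.41.

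The other genes had different neighbours. Closest to Cyba were Ddt (r = 0.988), Fau, which encodes a ribosomal protein (0.987), and Gpx1, a glutathione peroxidase gene (0.986). Gpx1 stood at 1511 ± 684 CPM in WT cDC1 and 1128 ± 98.1 in KO cDC1 (n = 3 each). As for Cyba, WT cDC1 replicate 1 was the low library, at 736 CPM against 1765 and 2032 CPM in replicates 2 and 3. The part of the length trend in these correlations was not tested. Closest to Ncf1 were Ppp1r16b (0.973), the kinase gene Jak1 (0.948) and the integrin gene Itga4 (0.945). For Ncf4 they were H2-Q7, a nonclassical MHC class I gene (0.932), Armcx3 (0.919) and Serpinb1a (0.917). For Rac1 they were Zmpste24, which encodes a protease of prenylated proteins (0.980), Hnrnpf (0.967) and Atp5a1, an ATP synthase gene (0.965). Ncf1 had an r of 0.00 with Cybb, and Ncf4 one of -0.50.

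Of 10 further genes of the Nox family and its partners, 2 could be tested in KO cDC1, and neither passed. Cybc1, which encodes a chaperone of gp91phox, had -0.34 (SE 0.31, edgeR adjusted p = 0.604) and Noxo1 0.68 (SE 0.86, adjusted p = 0.721). Nox3, Nox4, Noxa1, Duox1 and Duoxa1 had no read in any library, and Nox1, Duox2 and Duoxa2 had too few to be tested. The highest library for Nox1 had 0.239 CPM, and no other catalytic Nox gene than Cybb was above that.

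Of 15 genes for small GTPases of the Rac and Rap cycle and for proteins that load, unload or hold them, 1 rose and 1 fell. Of all tested genes 3.60% rose and 1.72% fell in KO cDC1. Arhgdib encodes a GDP dissociation inhibitor of blood cells, which holds Rac in the cytosol. It stood at 146, 151 and 162 CPM in WT cDC1 and at 659, 623 and 684 CPM in KO cDC1, and the groups were far apart. It rose by 2.10 (SE 0.20, edgeR adjusted p = 9.5e-05), under all 14 alternatives. The cDC2 means were 747 ± 36.9 CPM for WT and 777 ± 130 CPM for KO (n = 3 each), and the difference did not pass (0.06, SE 0.19, edgeR adjusted p = 1.00). The genotype effects differed by 2.04 (SE 0.27, edgeR adjusted p = 0.00196). Rac3, a minor Rac form, fell from 0.728 ± 0.0757 to 0.148 ± 0.0496 CPM (n = 3 each, edgeR adjusted p = 0.0488), a call lost in 9 of 14 alternatives, 5 of them fits without 1 library (WT replicate 2 or 3, or any KO replicate).

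Upstream of the oxidase, 1 of 15 kinase and lipid enzyme genes passed in KO cDC1, where 5.32% of all tested genes did. Pla2g4a, the cytosolic phospholipase A2 gene whose product arachidonate activates the complex, rose from 14.0 ± 2.63 to 24.1 ± 1.35 CPM (n = 3 each; 0.78, SE 0.20, edgeR adjusted p = 0.0364). That call was lost in 7 of 14 alternatives, including 5 of 6 fits without 1 library, all except the one without WT replicate 1. Of 10 genes of phagosome delivery and LC3-associated phagocytosis, 9 could be tested and none passed, and the smallest p belonged to Vamp8 (-0.50, SE 0.26, edgeR adjusted p = 0.331). Of 18 antioxidant genes none passed, and the smallest p belonged to Txn1, the thioredoxin gene (-1.25, SE 0.35, edgeR adjusted p = 0.0627).

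Among 9 genes of NADPH supply, 1 rose and 2 fell in KO cDC1, where 3.60% of all tested genes rose and 1.72% fell. Tkt, the transketolase gene of the pentose phosphate pathway, stood at 505, 450 and 402 CPM in WT cDC1 and 1007, 973 and 1015 CPM in KO cDC1. It rose by 1.14 (SE 0.25, edgeR adjusted p = 0.0209), and lost its call in 5 of 6 fits without 1 library, again all except the one without WT replicate 1. Idh1, the cytosolic isocitrate dehydrogenase gene, fell from 57.2 ± 5.75 to 23.7 ± 6.16 CPM (n = 3 each; -1.27, SE 0.22, edgeR adjusted p = 0.00398). Idh2, its mitochondrial counterpart, fell from 81.2 ± 5.54 to 40.7 ± 0.645 CPM (n = 3 each; -0.99, SE 0.17, edgeR adjusted p = 0.00440). Both falls passed under all 14 alternatives. WT cDC2 had 18.9 ± 0.613 CPM of Idh1 (n = 3) and 97.1, 79.3 and 77.0 CPM of Idh2. On these means KO cDC1 lay nearer to WT cDC2 than WT cDC1 did for Idh1 and farther from it for Idh2.

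Of 8 transcription factors known to act at oxidase gene promoters, 6 could be tested. In KO cDC1 1 of them passed, against 5.32% of all tested genes. Irf1, an interferon regulatory factor gene, stood at 108, 111 and 97.5 CPM in WT and 218, 186 and 184 CPM in KO. It rose by 0.89 (SE 0.22, edgeR adjusted p = 0.0329), a call lost in the same 5 of 6 fits as that of Tkt, with adjusted p up to 0.140. Irf8 had -0.71 (SE 0.45, edgeR adjusted p = 0.435), and Spi1, which encodes PU.1, had -0.13 (SE 0.21, adjusted p = 0.775). In cDC2 none of the 7 lists had a gene that passed. The median log2 fold change in KO cDC1 was between -0.22 for the antioxidant genes and 0.35 for the kinase and lipid enzyme genes, beside -0.00 for all tested genes.

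**Figure D4:**
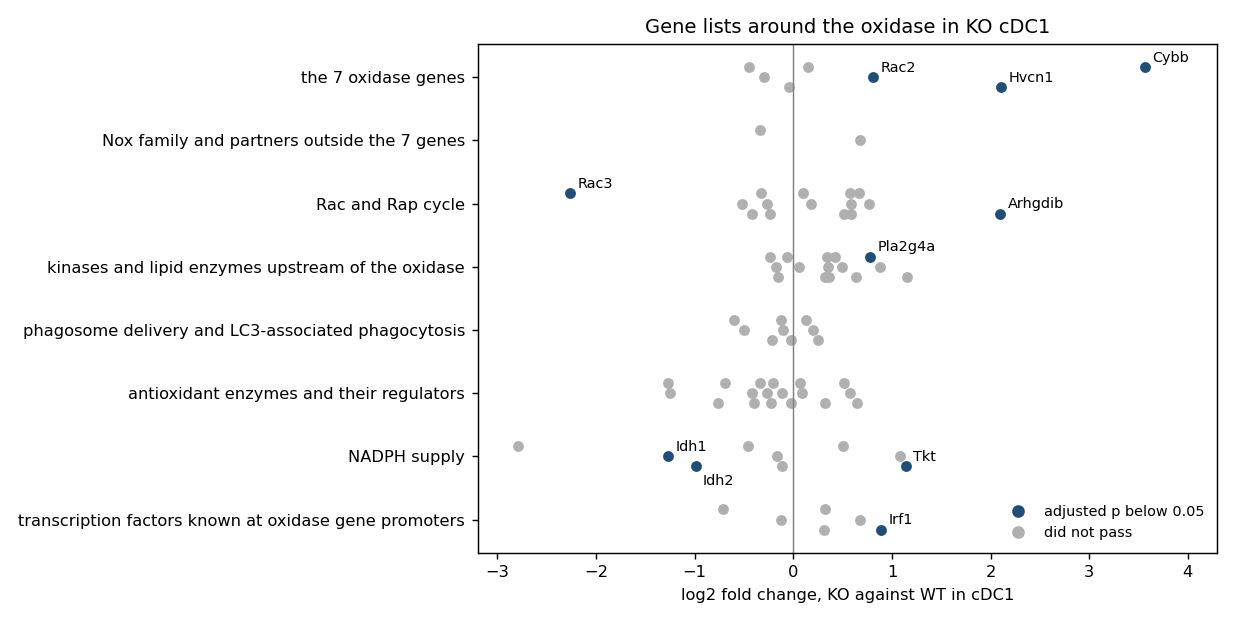
Log2 fold change of KO against WT in cDC1 for every tested gene of the 7 oxidase genes and of the 7 lists around them, with 1 row per list. Blue points have an edgeR adjusted p below 0.05 and are named, and the vertical spread within a row has no meaning. Cybb at 3.57 lies farthest to the right.

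Exons of 3 of the 7 genes overlap a gene on the opposite strand, and whether the counting used strand is not given in the sources used here. In GENCODE, 408 of 3663 exon bases of Ncf1 (11.1%) lie in Gtf2ird2, 2309 of 4496 of Rac1 (51.4%) in Daglb, and 1574 of 3563 of Hvcn1 (44.2%) in Tctn1. These percentages are not shares of the counted bases, because the counted lengths were shorter. They were 2721 bases for Ncf1, 2269 for Rac1 and 2826 for Hvcn1. GENCODE extends Rac1 to base 143503634, whereas RefSeq ends it at 143505481. How much of the overlap was counted is not known, and reads in any counted part cannot be told apart without strand. In cDC1 Tctn1 was at 1.39 ± 0.717 CPM in WT and 2.29 ± 0.359 CPM in KO (n = 3 each), both below the Hvcn1 levels. Daglb (-0.64, edgeR adjusted p = 0.0913) and Gtf2ird2 (0.02) did not pass in cDC1.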

How the data were processed

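PolyA RNA of 12 libraries, 4 groups of 3, was sequenced. The authors deposited raw read counts per gene under Entrez identifiers, with gene lengths in bases, from GRCm38 (mm10) and featureCounts per the submitters' processing notes; the aligner and versions are not given in the sources used here. Here, RefSeq (GRCm38.p6) gave symbols for 25275 of 27179 genes, and the others held 2.23% of reads. One model with 4 group means was fitted to the 13415 genes kept by filterByExpr, with TMM scaling and robust quasi-likelihood (edgeR 4.0.16, R 4.3.3), and 5 contrasts were taken. Benjamini-Hochberg adjustment ran over all tested genes. SE was the size of the log2 fold change divided by the root of its F statistic. Similar genes had a mean CPM of at least 5, and log2 CPM used a prior count of 2. DESeq2 1.42.0 and limma-voom (limma 3.58.1) were alternatives. The fit was also run on counts simulated with known fold changes and the same dispersion for every gene. That simulation held no trend with gene length and no shared mouse pools, so it cannot show how the fit handles them.

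The 7 genes and all lists were chosen with earlier results of these data known. Named genes were the 7, Zfp366, the 3 most similar genes to each (predicted genes left out), and per list the genes passing in cDC1 (at most 4) and cDC2 (at most 2) or, with none, the 1 of smallest p. Other names were added after their values were seen. One partner gene is not reported here. Replicate numbers gave no sign of pairing the genotypes: same-numbered KO and WT libraries had residual correlations of 0.02, -0.07 and 0.11 (cDC1) and -0.05, -0.05 and -0.06 (cDC2). Per the labels a mouse pool joins a cDC1 and a cDC2 library, whose residual correlations were -0.2 to -0.07 in WT and 0.14 to 0.26 in KO.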

Additional observations from a re-analysis of the deposited data

Results flagged for a closer look

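Of 81 tested genes of the oxidase and the lists around it, 3 had a genotype effect that differed between cDC1 and cDC2 by the test of the difference itself, against 1.42% of all tested genes. The effect in cDC1 minus that in cDC2, on the log2 scale, was 3.33 for Cybb (edgeR adjusted p = 0.000842), 2.04 for Arhgdib (0.00196) and 1.48 for Irf1 (0.0334). Cybb and Arhgdib passed in all fits that left out 1 library, and Irf1 passed in 3 of those 12. The call of Irf1 was also lost with the mouse pool as a block (edgeR adjusted p = 0.118) and with the replicate number as a block (adjusted p = 0.0502). Irf1 stood at 89.6 ± 26.5 CPM in WT cDC2 and 59.6 ± 3.60 CPM in KO cDC2 (n = 3 each).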

How the results depend on the processing

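The rises of Cybb and Hvcn1 in KO cDC1, the lower Cybb, Rac2 and Hvcn1 of WT cDC1 against WT cDC2 and the larger genotype effect on Cybb in cDC1 passed under every alternative run. Counts of oxidase genes that passed moved by over 1.5 times in few settings. Within replicates 2 and 3 they were 6 (cDC1), 3 (cDC2), 6 (difference of the effects) and 5 (KO subsets). For the difference of the effects they were 2 with DESeq2, 2 with a gene length offset and 2 with the mouse pool as a block. Leaving out 1 library gave 1 to 2 for that difference (2 without cDC1 WT replicate 1 or cDC2 WT replicate 3) and 1 to 3 for the KO subsets (1 without cDC1 KO replicate 3).

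Over all genes, DESeq2 called 1318 in cDC1 and 480 for the difference, against 714 and 190 in edgeR. The difference had 302 with the length offset and 116 with the pool block. Within replicates 2 and 3 there were 6438 (cDC1), 1039 (cDC2), 5157 (difference), 6391 (WT subsets) and 6620 (KO subsets). With only the groups compared there were 1537 between WT and 4172 between KO subsets, against 2846 and 2264. Without 1 library the counts ran from 318 (cDC1 WT replicate 2) to 3052 (cDC1 WT replicate 1) in cDC1, from 110 to 501 for the difference, and from 1209 (cDC2 KO replicate 2) to 2985 (cDC2 KO replicate 1) between the KO subsets.

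Among the 7 genes, signs turned only in differences that had not passed in the fit to all 12 libraries. Within replicates 2 and 3 Cybb was -0.06 in cDC2, Ncf4 0.15 in the difference and Ncf1 -0.46 between the WT subsets. With the length offset Cyba was 0.19 and Ncf4 0.08 in the difference, and Ncf1 -0.03 between the WT subsets; limma-voom gave 0.01 for Cyba in the difference. Fits without 1 library ran from -0.13 to 0.02 for Rac1 in cDC1. In cDC2 they ran from -0.13 to 0.43 for Cybb, -0.33 to 0.12 for Ncf1 and -0.08 to 0.34 for Rac1. For the difference they ran from -0.42 to 0.12 for Cyba, -0.14 to 0.21 for Ncf4 and -0.38 to 0.04 for Rac1, and between the WT subsets from -0.22 to 0.21 for Ncf1. The cause was not tested.

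The replicate number as a block called 733 genes in cDC1 and changed no call of the 7 genes, and the pool block changed those of Cyba and Hvcn1 alone. Txn1 passed in cDC1 with DESeq2, the length offset, the replicate block and within replicates 2 and 3. With 3 libraries a group the spread between them sets the SE, and the lowest read number behind a value of the 7 genes was 123 (Hvcn1 in cDC1 WT replicate 3).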
